A study of Mus musculus with 50 samples.

Results

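The collagen gene family was described in biopsies of mouse mammary tumours. Its members were all genes whose platform symbol is Col, a number, the letter a and a number, and that had a probe set assigned to them alone. The rule gave 44 collagen genes out of 22180 genes with such a probe set, and all 44 were among the 18045 genes tested, which had a mean of at least 4.09 on the log2 scale. They comprised 11 fibrillar chains, 6 chains of the type IV network, 6 of type VI beaded filaments, 3 of the type VIII and X networks, 9 fibril-associated chains (FACIT, collagens with interrupted triple helices that sit on fibrils), Col15a1 and Col18a1 of the basement membrane zone, Col7a1 of anchoring fibrils, 4 transmembrane chains, and Col26a1 and Col28a1, which fall in none of these classes. Where a gene had more than 1 probe set (Col1a2, Col5a1 and Col6a1, with 2 each), the probe set of highest mean stands for it. For Col5a1 the 2 probe sets correlated at r = 0.320, against 0.902 for Col1a2 and 0.910 for Col6a1.

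RNA came from 50 tumours that arose spontaneously in female mice, with 1 array each, biopsied before the mice were given a drug. All mice came from 1 cross, in which (C57BL/6J x FVB/NJ) hybrids were backcrossed to FVB/NJ mice with the MMTV-Erbb2 transgene, so all carry the transgene, whose mouse mammary tumour virus promoter drives Erbb2 in mammary epithelium, and each inherited its own set of C57BL/6J segments. By the labels the 50 tumours form 1 group, with no batch named; the title of the series names doxorubicin and the sample labels name docetaxel, and no response was analysed here. The values are the authors' log2 RMA values, so 1 unit is a 2-fold difference, and the number of arrays limits the precision of what follows.

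Collagens are secreted or membrane-bound proteins whose chains wind into triple helices, and each type is built from its own set of chains. Fibrillar collagens form the fibres of connective tissue and are made mainly by fibroblasts, type IV collagen forms the sheet-like scaffold of basement membranes under epithelium and around vessels, and types IX and XI are best known from cartilage. In a mammary tumour, fibrillar collagen is a main component of the stroma between nests of carcinoma cells.

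Of the 50 arrays, 3 stood apart, with a mean correlation with the other arrays of 0.931 (mid60), 0.916 (mid79) and 0.954 (mid100) against a median of 0.978. Marker scores, the mean of the list's genes after each was standardised over the tumours, put mid60 at 6.34 for skin and 3.77 for basal epithelium, mid79 at 5.45 for adipocytes, 4.18 for endothelium and -3.51 for luminal epithelium, and mid100 at 4.66 for skeletal muscle and 3.18 for endothelium. Mid60 also had the highest luminal score, at 1.88. Sbsn, a cornified-layer gene and the skin marker with the highest mean, was at 8.97 in mid60. Mme, the basal epithelium marker with the highest mean, was at 7.37 in mid60, under its mean of 9.27, and so went against that score. Fabp4, the adipocyte fatty acid carrier, was at 12.84 in mid79, but also at 11.37 in mid100 and 11.26 in mid60, against a mean of 7.74. Acta1, skeletal muscle actin, was at 12.38 in mid100. Erbb2 was at 9.02 in mid60 and 9.25 in mid79, and between 11.10 and 11.94 in the other 48 tumours; whether its probes read the transgene is not stated in the labels. Epcam, the luminal marker with the highest mean, averaged 11.42 and was at 10.45 in mid60, 8.61 in mid79 and 10.89 in mid100. In mid60 Epcam was thus under its mean, although the luminal score was highest there. A further tumour, mid71, had a skeletal muscle score of 4.38 and a mean level of the muscle markers of 10.48, near the 10.72 of mid100 and against a median of 5.13, while its mean correlation with the other arrays was 0.974. Counts and the main relations below are therefore given with all 50 tumours and again without mid60, mid79 and mid100. Leaving out mid71 as well, a run chosen after its muscle score was seen, moved no number of collagen genes that rose by more than 2, and no number that fell, in the regressions below. The part that skin, fat or muscle tissue had in these relations was not tested beyond that.

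Collagen RNA varied more between tumours than most RNAs. Between the 5th and the 95th percentile of the tumours, 25 of 44 collagen genes (56.8%) differed by at least 2-fold, against 23.8% of all tested genes, and 11 of 44 differed by at least 4-fold, against 4.65%. The median SD over tumours was 0.39 log2 for the collagen genes and 0.23 for all tested genes. Without mid60, mid79 and mid100, 23 collagen genes still differed by at least 2-fold, against 19.3% of all tested genes, and the median SDs were 0.32 and 0.21. The classes differed in spread, with a median SD of 0.66 in the 11 fibrillar genes, 0.46 in the 6 type IV genes, 0.45 in the 6 type VI genes, 0.35 in the 9 FACIT genes and 0.24 in the 4 transmembrane genes.

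**Figure D1:**
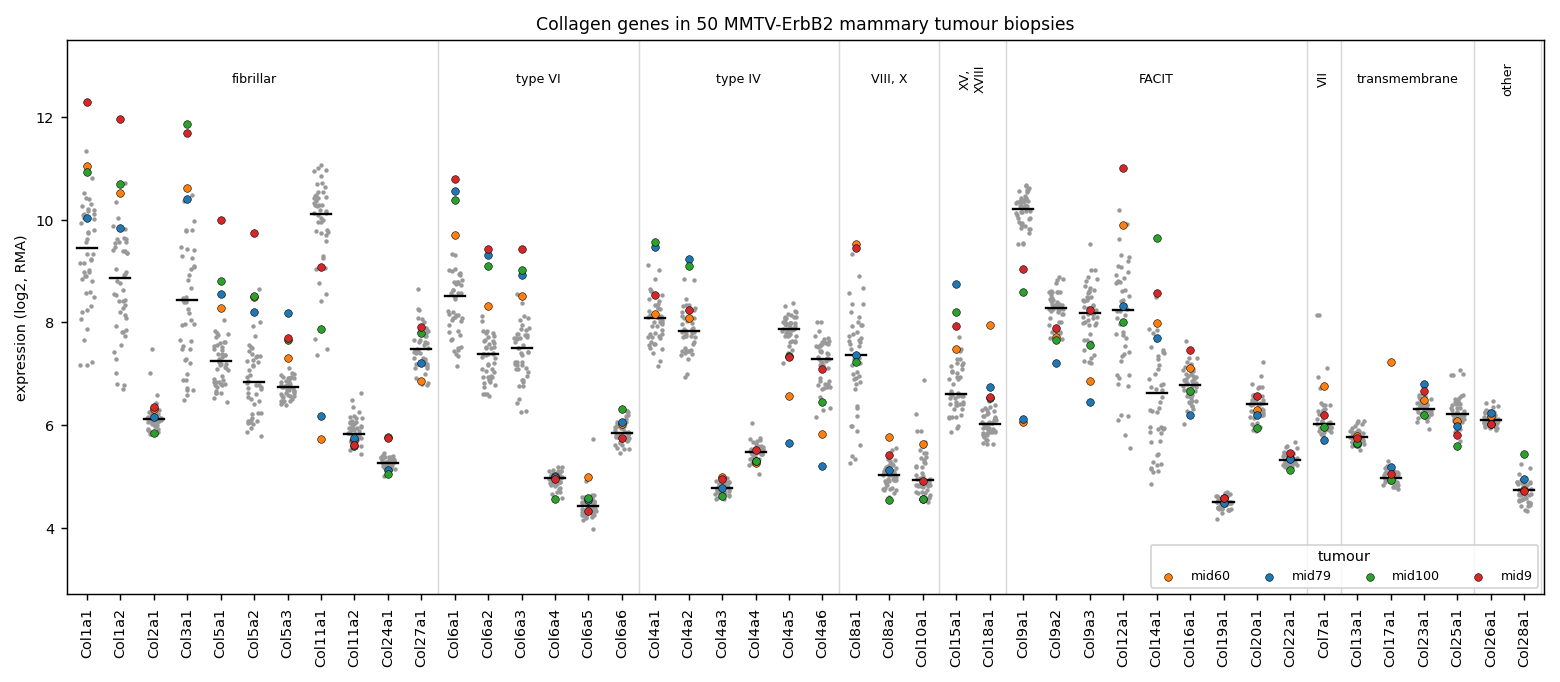
Level of each of the 44 collagen genes (vertical axis, log2 RMA value) in the 50 tumours, genes grouped by class along the horizontal axis. Each point is 1 tumour, the black bar is the median, and mid60, mid79, mid100 and mid9 are coloured; levels of different genes come from different probes and are not comparable with each other. Col1a1, Col1a2, Col3a1, Col12a1, Col14a1 and Col8a1 spread over several log2 units, whereas Col9a1 sat between 9.05 and 10.67 in 47 tumours and at 6.05 in mid60, 6.12 in mid79 and 8.60 in mid100.

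The 4 genes with the largest SD were Col3a1 (1.32), Col11a1 (1.20), Col12a1 (1.16) and Col1a2 (1.13), of which Col12a1 is a FACIT chain and the others are fibrillar. Col3a1, the single chain of collagen III, was lowest at 6.48 in mid26, had a median of 8.44 and was highest at 11.86 in mid100, with a 14.7-fold difference between the 5th and 95th percentiles. Col1a1, the main chain of collagen I, had its lowest level of 7.16 in mid115, its median at 9.45 and its highest level of 12.30 in mid9 (12-fold), and Col1a2, its partner chain, 6.70 in mid120, 8.87 and 11.97 in mid9 (13.2-fold). The tumours formed a continuous range for these genes, with mid9 above the second highest tumour, mid71, by close to 1 log2 unit for Col1a1 (11.35 in mid71, the second tumour with muscle markers). Col5a1 and Col5a2, chains of the collagen V that nucleates type I fibrils, ranged between 6.45 and 9.99 and between 5.79 and 9.75, and both were lowest in mid115 and highest in mid9. Col5a3, a further type V chain, was narrower, at 6.38, 6.75 and 8.18 (lowest, median, highest), and its highest tumour was mid79.

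Over the collagen genes, mid9 held the highest level of 8 genes, mid60 of 6, and mid79 and mid100 of 4 each, while mid115 held the lowest level of 7 genes and mid120 of 5. The fibroblast score was 2.21 in mid9, second to 2.57 in mid100, and was lowest in mid115 at -1.36. Mid9 and mid115 thus stood near the ends of both the collagen levels and the fibroblast score.

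The fibroblast score was built from 20 marker genes with no collagen among them (Dcn, Lum, Pdgfra, Postn, Fn1 and others), and each gene's log2 level was regressed on it with limma, adjusted by Benjamini-Hochberg over all tested genes and called at an adjusted p under 0.05. A slope is the log2 difference for 1 SD of the score. In bulk tissue, more fibroblasts and more RNA per fibroblast cannot be told apart. Of 44 collagen genes, 18 rose with the score, against 12.3% of all tested genes, and 4 fell, against 15.5%. Without mid60, mid79 and mid100 the same 18 rose, against 6.70%, and 0 fell, against 2.16% (20 collagen genes in either direction had an unadjusted p under 0.05). The median slope was 0.06 over the collagen genes and -0.02 over all tested genes.

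The 18 were Col1a1, Col1a2, Col3a1, Col5a1, Col5a2 and Col5a3 of the fibrillar class, Col6a1, Col6a2 and Col6a3 of type VI, Col4a1 and Col4a2, Col8a1 and Col8a2, Col12a1, Col14a1, Col15a1, Col18a1 and Col28a1. The steepest by the moderated statistic were Col3a1 with a slope of 1.28 ± 0.04 (SE, limma adjusted p = 3.01e-29), Col6a1 with 0.77 ± 0.03 (1.6e-27) and Col1a2 with 1.05 ± 0.06 (7.68e-22). Their slopes without the 3 arrays were 1.15, 0.65 and 1.05. In each of these 3 genes the level therefore rose with the score also in the 47 tumours left.

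The chains that fell with the fibroblast score with all 50 tumours were Col9a1 with a slope of -0.46 ± 0.11 (SE, limma adjusted p = 0.000937), Col4a5 with -0.17 ± 0.06 (0.0209), Col9a2 with -0.13 ± 0.05 (0.0244) and Col11a1 with -0.41 ± 0.16 (0.0473). Without mid60, mid79 and mid100 their slopes were -0.08, -0.003, -0.04 and -0.002, with limma adjusted p of 0.310, 0.975, 0.623 and 0.995. These 4 calls were lost when the 3 arrays were left out.

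**Figure D2:**
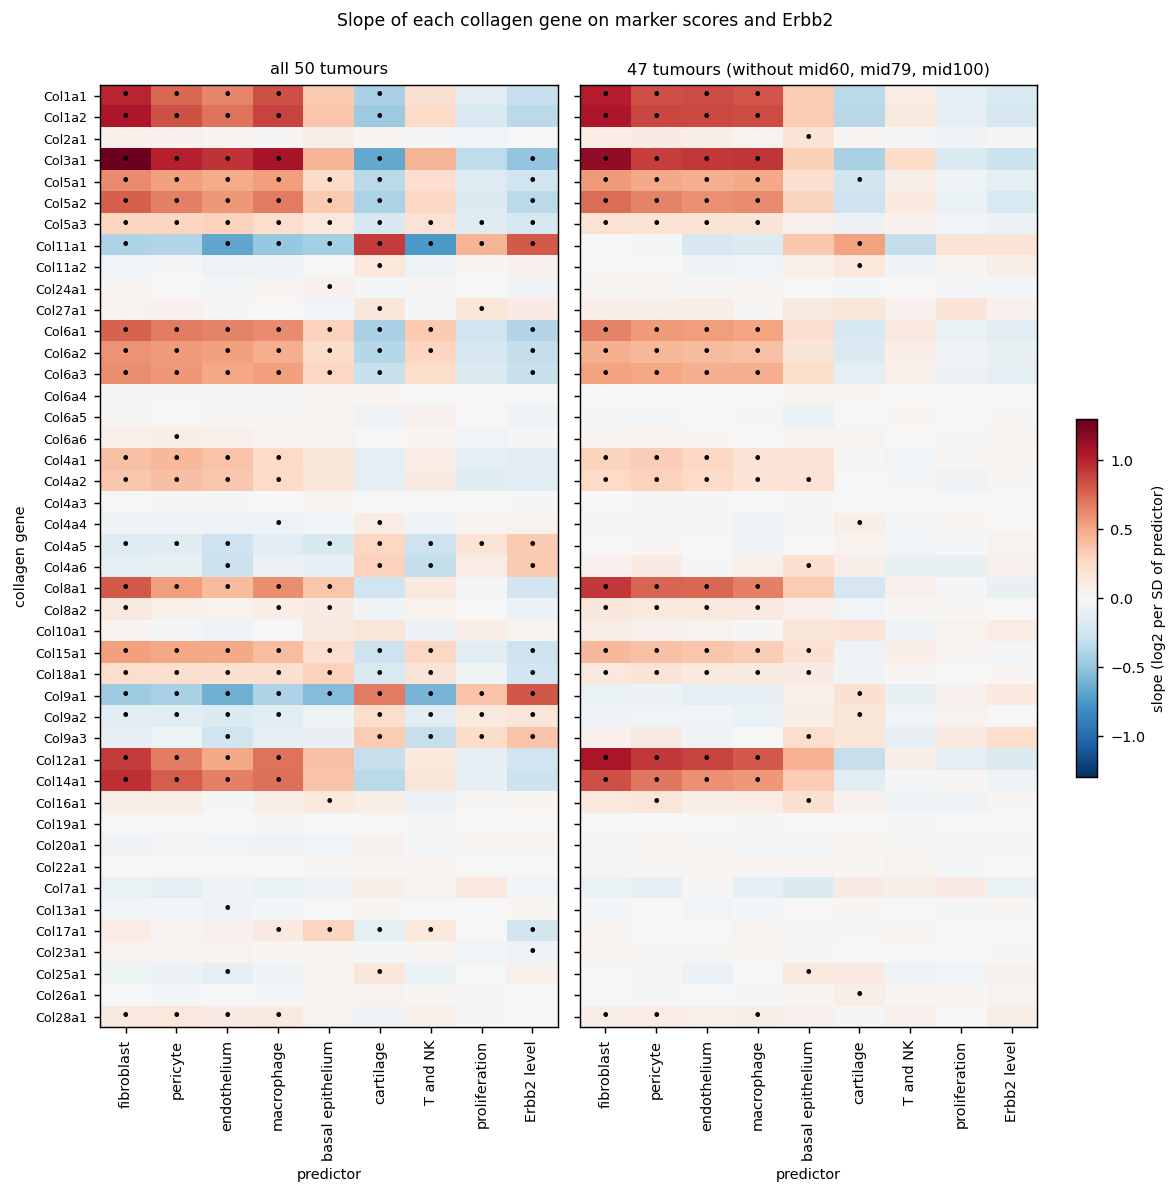
Slope of each collagen gene (rows, grouped by class) on 8 marker scores and on the Erbb2 level (columns), in log2 units per SD of the predictor, with all 50 tumours on the left and 47 tumours on the right. Dots mark a limma adjusted p under 0.05 over all tested genes. In the fibroblast column, types I, III, V, VIII, XII and XIV kept red cells with dots in both panels. So did Col6a1, Col6a2, Col6a3, Col4a1, Col4a2, Col15a1, Col18a1 and Col28a1. The blue cells of Col9a1, Col11a1 and Col4a5 on the left paled on the right.

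Most of the 18 genes also rose with the scores of other stromal cells. With all 50 tumours 17 collagen genes rose with each of the fibroblast, pericyte, endothelium and macrophage scores, out of 20 that rose with any of them; Col8a2, Col6a6 and Col17a1 rose with some. Without mid60, mid79 and mid100 the numbers were 17 and 19, with Col16a1 and Col28a1 rising with some. With the pericyte score (mural cells of small vessels) 18 rose, against 12.6% of all tested genes, and 3 fell, against 16.4%, and without the 3 arrays 19 rose, against 7.31%, and 0 fell, against 4.25%, with 17 rising in both. With the macrophage score 19 rose, against 10.7%, and 4 fell, against 13.4%, and without the 3 arrays 18 rose, against 7.03%, and 0 fell, against 4.63%, with 18 rising in both. With the endothelium score 17 rose, against 14.6%, and 8 fell, against 21%, and without the 3 arrays 17 rose, against 6.28%, and 0 fell, against 2.26%, with 16 rising in both. The scores themselves moved together: over 50 tumours the fibroblast score correlated with the pericyte score at r = 0.829 and rho = 0.749, with the endothelium score at r = 0.803 and rho = 0.804, and with the macrophage score at r = 0.815 and rho = 0.753 (permutation tests, adjusted p = 2e-05 for each r and rho, over 10 pairs of scores). Without the 2 tumours farthest from the median fibroblast score these r values were 0.744, 0.743 and 0.722. Because the scores moved together, the separate counts are not independent.

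The gene with the largest statistic differed between the scores. On the pericyte score it was Col6a2, with a slope of 0.56 ± 0.04 (SE, limma adjusted p = 2.3e-14), followed by Col15a1 with 0.51 ± 0.04 (2.49e-13), whose protein lies between basement membranes and the fibrils next to them, and Col6a1 with 0.67 ± 0.06 (9.31e-13). On the endothelium score it was Col5a3, with 0.30 ± 0.02 (5.34e-15), followed by Col6a2 with 0.53 ± 0.05 (3.74e-13) and Col15a1 with 0.49 ± 0.05 (1.01e-12). On the macrophage score it was Col5a1, with 0.55 ± 0.05 (8.46e-12), followed by Col3a1 with 1.07 ± 0.11 (1.65e-11) and Col5a2 with 0.68 ± 0.07 (2.77e-11). Without the 3 arrays these slopes were 0.43, 0.38 and 0.55 on the pericyte score, 0.17, 0.41 and 0.36 on the endothelium score, and 0.49, 0.93 and 0.62 on the macrophage score, and each stayed past the threshold.

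The chains that fell most clearly with these scores were again Col9a1, Col9a2, Col4a5 and Col11a1. On the pericyte score Col9a1 had a slope of -0.42 ± 0.11, Col9a2 of -0.14 ± 0.05 and Col4a5 of -0.16 ± 0.06 (limma adjusted p = 0.00293, 0.0175 and 0.0388). On the endothelium score Col9a1 had -0.62 ± 0.09, Col4a5 -0.27 ± 0.05 and Col11a1 -0.67 ± 0.14 (1.64e-07, 1.97e-05 and 0.000115). On the macrophage score Col9a1 had -0.40 ± 0.11, Col9a2 -0.15 ± 0.05 and Col11a1 -0.49 ± 0.15 (0.00683, 0.014 and 0.0152). None of these 9 relations was called by limma without the 3 arrays, where their adjusted p lay between 0.0893 and 0.999.

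In 1 model with the fibroblast, endothelium and basal epithelium scores together, each term is tested at fixed levels of the others. For the fibroblast term 14 collagen genes rose, against 2.49% of all tested genes, and 0 fell, against 0.961%; without the 3 arrays 12 rose, against 1.89%. Col3a1 had a slope of 1.48 ± 0.07 (SE, limma adjusted p = 1.59e-22), Col1a2 of 1.38 ± 0.08 (5.37e-19), Col6a1 of 0.69 ± 0.05 (3.78e-15) and Col1a1 of 1.36 ± 0.10 (5.24e-15), and without the 3 arrays these slopes were 1.20, 1.04, 0.58 and 0.97. The basement membrane chains were not among the 14: Col4a1 had a slope of 0.23 ± 0.08 (adjusted p = 0.147), Col4a2 of 0.18 ± 0.08 (0.223) and Col18a1 of 0.09 ± 0.04 (0.282). Col15a1 was, with 0.38 ± 0.06 (limma adjusted p = 3.61e-06). For the endothelium term 3 rose, against 8.01%, and 13 fell, against 8.03%, but 0 collagen genes were called in either direction without the 3 arrays, against 0.633% and 0.194% of all tested genes, with 4 at an unadjusted p under 0.05. With all 50 tumours the risers were Col5a3 with 0.20 ± 0.04, Col6a2 with 0.17 ± 0.05 and Col15a1 with 0.18 ± 0.05 (limma adjusted p = 2.6e-05, 0.0139 and 0.0179), and the 3 largest statistics among those that fell were those of Col9a1 with -0.73 ± 0.11, Col1a2 with -0.40 ± 0.08 and Col4a5 with -0.38 ± 0.07 (2.43e-06, 9.74e-05 and 0.00012). For the basal epithelium term 3 rose, against 6.33%, namely Col18a1 with 0.25 ± 0.03, Col17a1 with 0.27 ± 0.03 and Col24a1 with 0.06 ± 0.02 (1.3e-10, 2.12e-09 and 0.0469), and 2 fell, against 5.47%, namely Col9a1 with -0.46 ± 0.07 and Col4a5 with -0.18 ± 0.05 (3.35e-06 and 0.00646). Without the 3 arrays 4 other genes rose with that term, Col2a1, Col4a6, Col16a1 and Col25a1, against 2.19%, and 0 fell, against 2.07%.

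**Figure D3:**
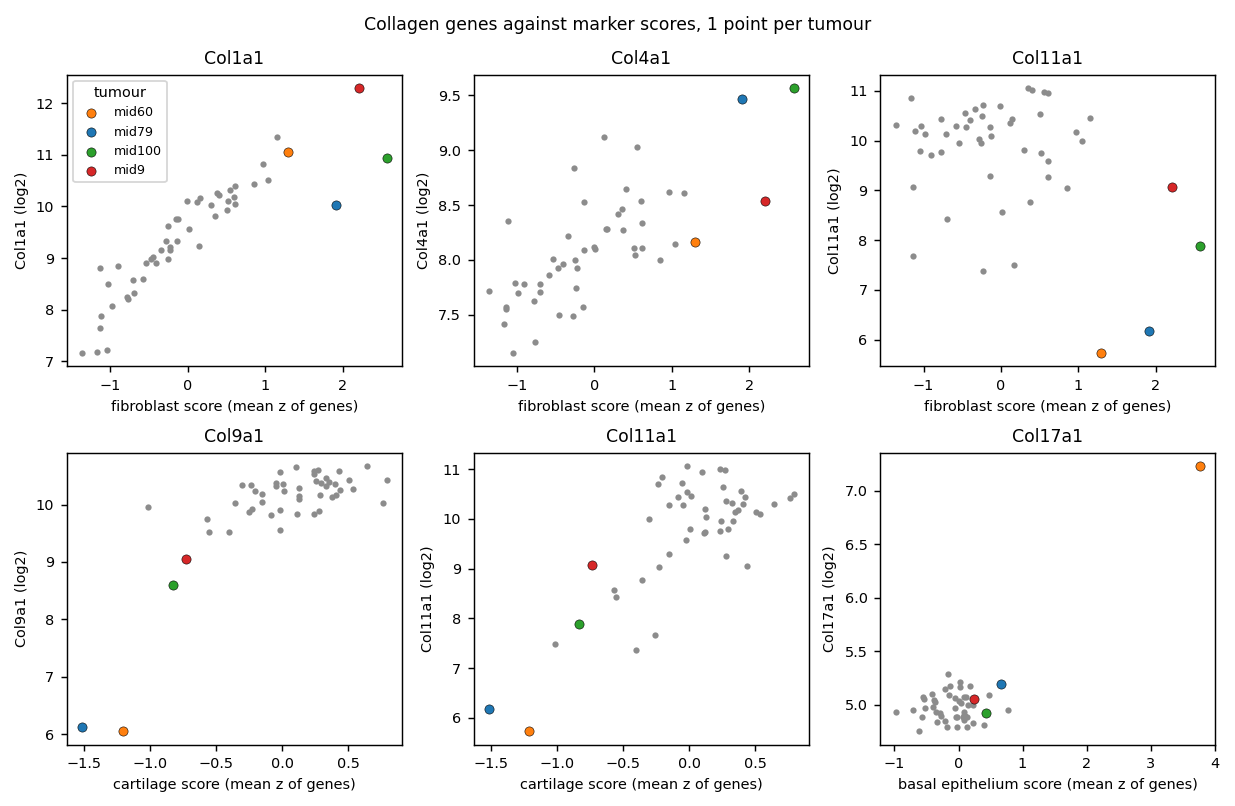
Level of a collagen gene (vertical axes, log2) against a marker score (horizontal axes, mean of the standardised marker genes), 1 point per tumour, with mid60, mid79, mid100 and mid9 coloured. Col1a1 climbed with the fibroblast score over the whole range, Col11a1 was low at high scores in mid60, mid79 and mid100, and Col17a1 was between 4.75 and 5.29 in 49 tumours and at 7.23 in mid60.

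Chains that build 1 protein were set against each other over the 50 tumours, together with genome neighbours and pairs of different classes, 26 pairs in all, with permutation tests adjusted over the 26. With Pearson's r, 21 pairs were called, 20 positive and 1 negative. Col1a1 and Col1a2 correlated at r = 0.988 and rho = 0.986 (permutation test, adjusted p = 1.62e-05 for both, the smallest that the permutations and the adjustment gave), and r was 0.988 without the 2 tumours farthest from the Col1a1 median, mid9 and mid115, and 0.9895 without mid60, mid79 and mid100. With this Col1a2 probe set the chains of collagen I thus moved closely together over the whole range of tumours. With the other Col1a2 probe set, of lower mean and larger SD, r was 0.873 and rho 0.838. Col3a1 and Col5a2, which lie next to each other on chromosome 1 with 0 protein-coding genes between them, correlated at r = 0.932 and rho = 0.927. Collagen VI gave r = 0.963 and rho = 0.949 for Col6a1 and Col6a2, adjacent genes on chromosome 10, and r = 0.924 and rho = 0.886 for Col6a1 and Col6a3 on chromosome 1 (permutation test, adjusted p = 1.62e-05 for each r and rho of these pairs). The r values without the 3 arrays were 0.921 for Col3a1 and Col5a2, 0.947 for Col6a1 and Col6a2 and 0.899 for Col6a1 and Col6a3. The other 3 chains of type VI, Col6a4, Col6a5 and Col6a6, which are thought to take the place of Col6a3 in the trimer, rose with neither the fibroblast score nor Col1a1.

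Windows of 300 bases around annotated starts (250 before and 50 after) were available from RefSeq on GRCm38.p6 for 35 of the 44 collagen genes, 38 windows in all. The Col1a2 (chr6:4505368-4505667, + strand) and Col3a1 (chr1:45311288-45311587, + strand) windows are shown because these genes had nearly the same course over tumours. Capitals mark CCAAT, the binding motif of the general factor NF-Y, and TATAAA, the TATA box, on either strand (ATTGG and TTTATA on the strand shown).
Col1a2: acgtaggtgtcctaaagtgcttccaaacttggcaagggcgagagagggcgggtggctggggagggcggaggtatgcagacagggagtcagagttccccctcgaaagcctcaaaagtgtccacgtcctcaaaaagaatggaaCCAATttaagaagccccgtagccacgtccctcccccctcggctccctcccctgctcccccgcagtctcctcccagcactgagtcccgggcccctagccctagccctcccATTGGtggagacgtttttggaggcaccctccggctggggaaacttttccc
Col3a1: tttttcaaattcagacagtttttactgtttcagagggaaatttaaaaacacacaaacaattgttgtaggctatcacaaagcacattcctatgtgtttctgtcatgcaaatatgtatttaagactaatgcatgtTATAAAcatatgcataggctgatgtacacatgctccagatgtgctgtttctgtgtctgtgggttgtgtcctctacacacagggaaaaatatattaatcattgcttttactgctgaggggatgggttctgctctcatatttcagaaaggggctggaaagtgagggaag
The Col1a2 window held CCAAT 2 times and TATAAA 0 times, and the Col3a1 window held CCAAT 0 times and TATAAA 1 time, so the pair shared neither motif. Of the 38 collagen windows 34.2% held CCAAT and 13.2% TATAAA on either strand, against 37.4% and 13.6% of 32851 windows of all genes. GGGCGG or CCGCCC, the GC box bound by Sp1, was in 60.5% of collagen windows and 35.7% of all windows; its first letters can overlap the ATTGG form of CCAAT. These are matches of letters in a window and not measured binding sites.

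Type IV genes lie in head-to-head pairs, and the pairs differed. Col4a1 and Col4a2, whose chains build the basement membrane collagen found in nearly every tissue, had lowest, median and highest levels of 7.15, 8.10 and 9.57 and of 6.93, 7.84 and 9.24. Both were lowest in mid120, and mid100 and mid79 held the highest levels of each. They correlated at r = 0.961 and rho = 0.932 (permutation test, adjusted p = 1.62e-05 for both), at r = 0.946 without the 2 tumours farthest from the Col4a1 median, and at r = 0.947 without the 3 arrays that stood apart. Their starts lie 21 bases apart on opposite strands, and their windows (Col4a1, chr8:11312777-11313076, - strand; Col4a2, chr8:11312555-11312854, + strand) are shown because the genes share 78 bases of them, in capitals, which each window reads on its own strand.
Col4a1: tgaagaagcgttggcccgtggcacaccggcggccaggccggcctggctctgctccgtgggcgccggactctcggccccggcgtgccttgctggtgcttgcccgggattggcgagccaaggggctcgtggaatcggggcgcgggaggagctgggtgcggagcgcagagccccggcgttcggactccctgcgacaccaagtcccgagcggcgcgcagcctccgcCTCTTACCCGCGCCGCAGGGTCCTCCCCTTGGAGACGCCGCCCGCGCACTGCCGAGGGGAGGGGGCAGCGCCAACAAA
Col4a2: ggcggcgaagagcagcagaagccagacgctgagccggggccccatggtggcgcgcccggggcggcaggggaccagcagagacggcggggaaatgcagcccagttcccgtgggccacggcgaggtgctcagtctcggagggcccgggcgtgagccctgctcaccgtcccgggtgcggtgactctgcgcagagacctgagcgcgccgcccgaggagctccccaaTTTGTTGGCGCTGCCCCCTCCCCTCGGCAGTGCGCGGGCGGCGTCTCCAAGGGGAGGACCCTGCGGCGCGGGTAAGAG
With Col4a1 as the predictor, Col4a2 had the largest moderated statistic of the collagen genes, with a slope of 0.46 ± 0.02 (SE, limma adjusted p = 5.47e-24). It was followed by Col15a1 with 0.48 ± 0.05 (3.43e-10) and Col14a1 with 0.86 ± 0.10 (9.5e-09), and without the 3 arrays these slopes were 0.39, 0.36 and 0.76. In all, 18 of 43 collagen genes rose with Col4a1, against 10.7% of all tested genes, and 0 fell, against 9.60%; without the 3 arrays 19 rose, against 6.09%, and 0 fell, against 3.69%, with 16 rising in both.

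Col4a5 and Col4a6, which lie head to head on the X chromosome with starts 1343 bases apart and form the type IV collagen of epithelial and smooth muscle basement membranes, had lowest, median and highest levels of 5.64, 7.88 and 8.38 and of 5.20, 7.28 and 8.0. Both were lowest in mid79 and second lowest in mid60, at 6.57 and 5.82. Their r was 0.750 and their rho 0.629 over 50 tumours (permutation test, adjusted p = 1.62e-05 for both), 0.551 (adjusted p = 0.000114) without the 2 tumours farthest from the Col4a5 median, and 0.515 (adjusted p = 0.000292) without the 3 arrays. Neither rose with the fibroblast score or with Col4a1. Col4a3 and Col4a4, known from the kidney's glomerular basement membrane and adjacent on chromosome 1, ranged between 4.55 and 4.98 and between 5.04 and 6.03, and their r was -0.014 and their rho 0.041 (permutation test, adjusted p = 0.926 and 0.779). Both genes varied little, with SDs of 0.11 and 0.16.

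**Figure D4:**
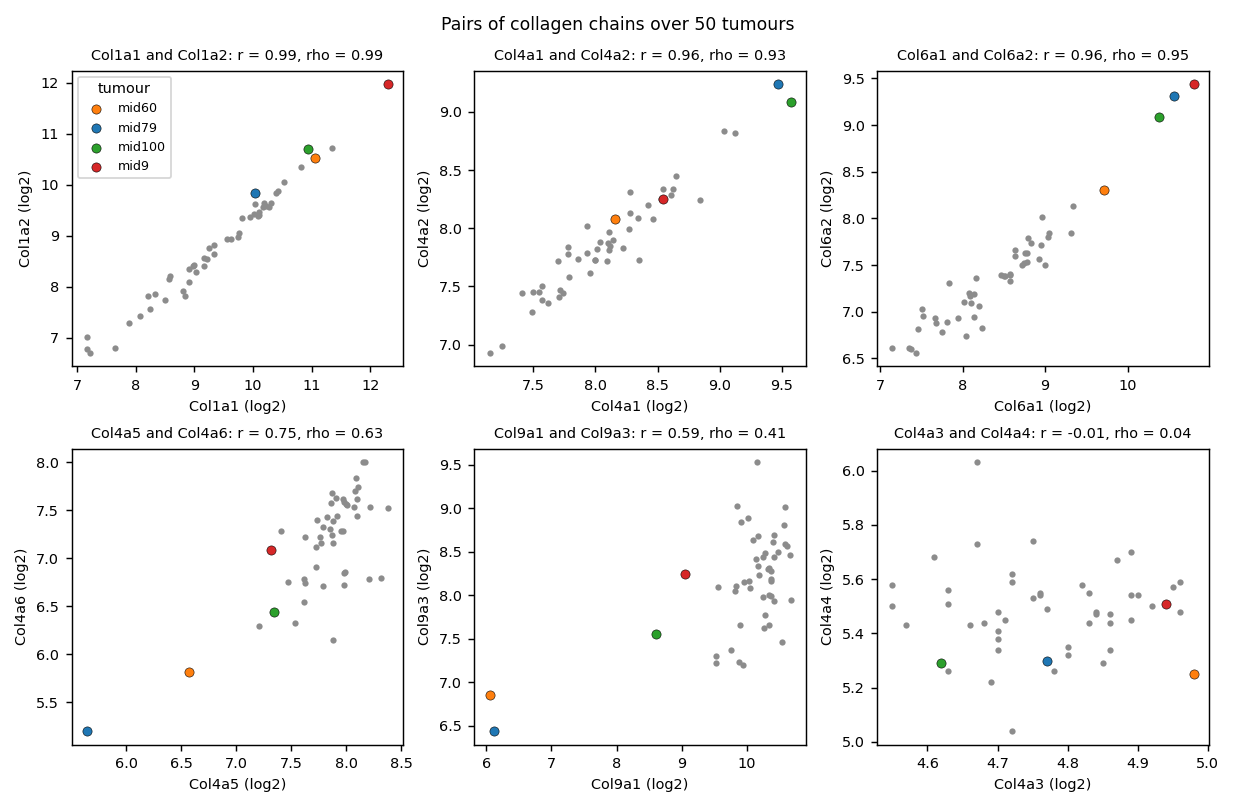
Levels of 6 pairs of collagen chains (axes, log2), 1 point per tumour, with mid60, mid79, mid100 and mid9 coloured and Pearson's r and Spearman's rho over 50 tumours above each panel. The type I, IV (Col4a1 and Col4a2) and VI pairs lie along a line over the whole range, the Col4a5 and Col9a1 panels are stretched by mid60 and mid79, and the Col4a3 and Col4a4 panel shows no trend.

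The genes known from cartilage split. Col11a1, which with Col11a2 and Col2a1 forms the thin fibrils of cartilage, was lowest at 5.73 in mid60, had a median of 10.11 and was highest at 11.06 in mid82, and mid79 (6.17) and mid100 (7.88) were also low. Its SD was 1.20 over 50 tumours and 0.89 over 47, and in the 47 it ran between 7.37 and 11.06. Col9a1, a FACIT chain on cartilage fibrils, was lowest at 6.05 in mid60, had a median of 10.21 and was highest at 10.67 in mid16. Its SD was 0.89 over 50 tumours and 0.34 over 47, and its lowest level in the 47 was 9.05. Col9a2 had lowest, median and highest levels of 7.20, 8.29 and 8.88, and Col9a3 of 6.44, 8.18 and 9.53, both lowest in mid79. Col2a1, the main collagen of cartilage, had a lowest level of 5.82 and a median of 6.11, and its highest levels, 7.48 in mid54 and 7.01 in mid111, stood above those of the other tumours.

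Within this set, Col9a1 and Col9a2 correlated at r = 0.626 and rho = 0.530 (permutation test, adjusted p = 1.62e-05 and 0.000159), and at r = 0.496 (adjusted p = 0.000693) without the 3 arrays. Col9a1 and Col9a3 gave r = 0.593 and rho = 0.408 (adjusted p = 4.59e-05 and 0.00531 by permutation) and r = 0.309 (adjusted p = 0.0479) without the 3 arrays, a call that was lost without mid71 as well (r = 0.308, permutation test, adjusted p = 0.0502). For Col9a2 and Col9a3, r = 0.399 (permutation test, adjusted p = 0.00529) was not matched by rho = 0.239 (0.123), and r was 0.161 (0.329) without the 3 arrays. Col11a1 and Col11a2 correlated at r = 0.492 and rho = 0.564 (permutation test, adjusted p = 0.000725 and 6.12e-05), and at 0.521 (0.000382) without the 3 arrays. Col2a1 was not called with Col9a1 (r = -0.055, rho = 0.073, permutation test, adjusted p = 0.673 and 0.641) or with Col11a1 (r = 0.205, rho = 0.209, permutation test, adjusted p = 0.156 and 0.169). After leaving out the 2 tumours most distant from the first gene's median, r was 0.555 for Col9a1 and Col9a2, 0.353 for Col9a1 and Col9a3, 0.239 for Col9a2 and Col9a3, 0.541 for Col11a1 and Col11a2, -0.037 for Col2a1 and Col9a1 and 0.171 for Col2a1 and Col11a1.

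A cartilage score was made from 11 tested marker genes outside the collagens. Several matrix genes that define cartilage lay near the lower limit of tested genes in all tumours: Acan, the aggrecan core protein, averaged 4.31, Matn1 4.33, Matn3 4.45 and Hapln1 4.40, and Epyc at 3.88 was under it. Others varied widely, among them Cnmd, which encodes chondromodulin, with 4.55, 7.79 and 10.87 (lowest, median, highest) and Comp, the cartilage oligomeric matrix protein, with 5.67, 9.86 and 11.04, while Sox9, the transcription factor that activates cartilage collagen genes and is also made in mammary epithelium, had 6.81, 9.77 and 10.73. Each of the 11 genes has the same weight in the score after standardising, so Acan, Matn1, Matn3 and Hapln1, with SDs between 0.13 and 0.15, count as much as Cnmd and Comp, with SDs of 2.01 and 1.38.

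With that score, 10 collagen genes rose, against 19.1% of all tested genes, and 12 fell, against 14%; without the 3 arrays, where the score was among its lowest (-1.21 in mid60, -1.52 in mid79 and -0.83 in mid100), 6 rose, against 5.77%, and 1 fell, against 4.26%. Those that rose in both were Col9a1, Col9a2, Col11a1, Col11a2 and Col4a4, and Col5a1 fell in both. Among those that fell with all 50, Col5a3 had a slope of -0.21 ± 0.04, Col6a2 of -0.37 ± 0.07 and Col6a1 of -0.42 ± 0.09 (limma adjusted p = 4.23e-05, 0.000114 and 0.000534), with adjusted p of 0.105, 0.0725 and 0.139 without the 3 arrays. Col11a1 had a slope of 0.91 ± 0.11 (SE, limma adjusted p = 3.8e-08) with all tumours and 0.52 ± 0.10 (0.00144) without the 3. Col9a1 had 0.67 ± 0.08 (6.24e-08) and 0.20 ± 0.04 (0.00197), and Col9a2 0.23 ± 0.04 (7.87e-06) and 0.15 ± 0.04 (0.00862). These 3 chains therefore stayed past the threshold in the 47 tumours, each at a slope under that with all 50. Of the 38 promoter windows only 1, that of Col3a1, held AACAAT, the SOX core motif (ATTGTT on the other strand), against 10.7% of all windows. No match was found in the windows of Col9a1 and Col11a1.

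The genes most like the widest ranging collagens, by Spearman's rho over 50 tumours among all tested genes outside the family, were as follows. For Col3a1 they were Dcn, the proteoglycan decorin (0.965), Mfap5, a microfibril protein (0.959), and Serping1, the C1 inhibitor (0.959). For Col1a2 they were Fn1, fibronectin (0.974), Fstl1 (0.972) and Bgn, biglycan (0.961). For Col12a1 they were Postn, periostin (0.907), Lrrc15 (0.905) and C1qtnf3 (0.900). For Col11a1 they were Gprasp2 (0.818), Bhlhb9 (0.796) and Aak1, a kinase of clathrin adaptors (0.796). Without mid60, mid79 and mid100 the rho values of these 12 genes lay between 0.755 (Bhlhb9 with Col11a1) and 0.969 (Fn1 with Col1a2).

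**Figure D5:**
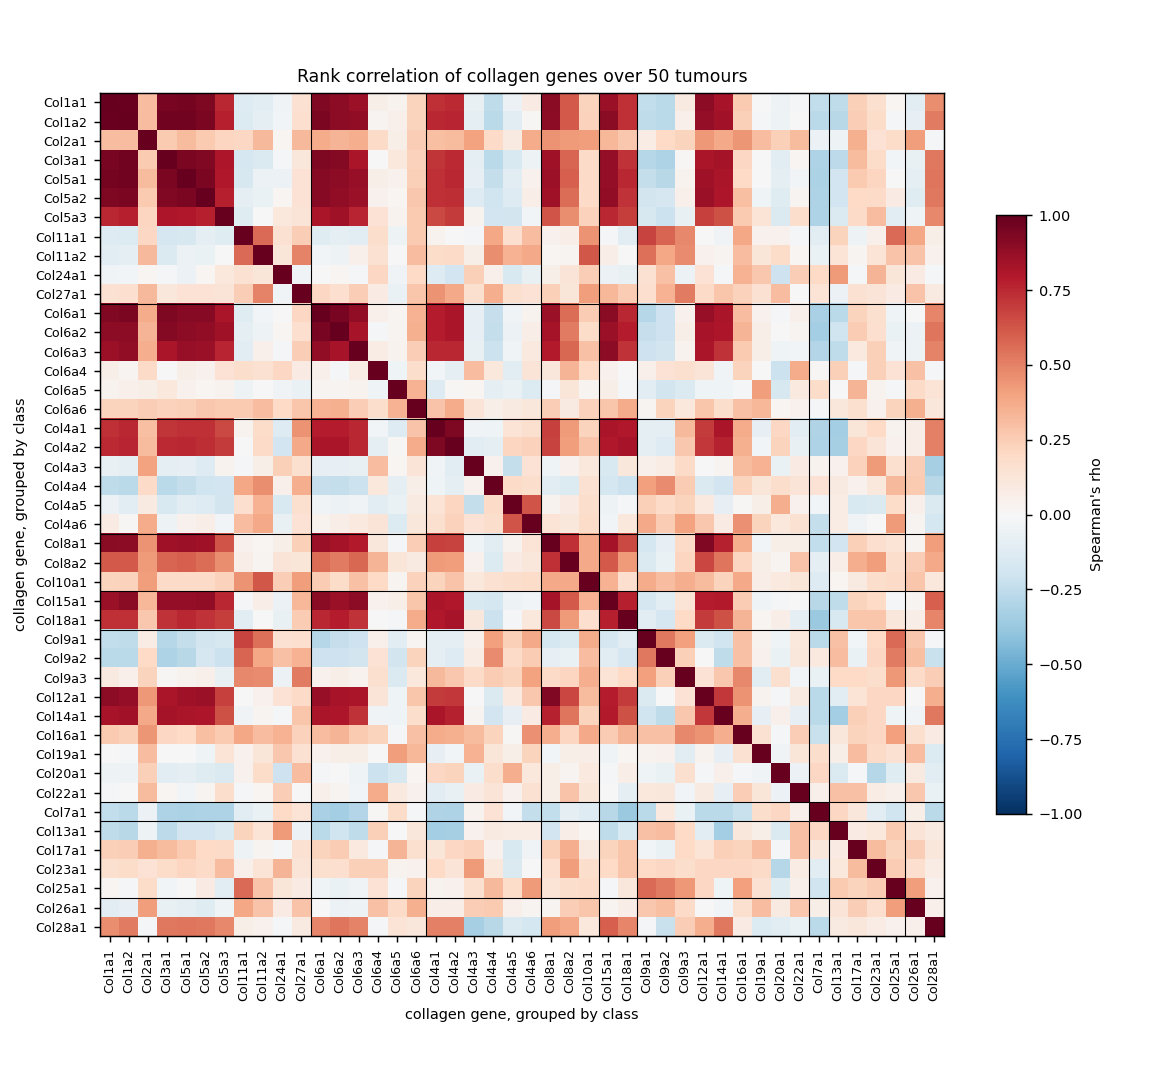
Spearman's rho over 50 tumours between all pairs of the 44 collagen genes (both axes, in class order, lines between classes), red for positive and blue for negative. Types I, III and V, Col6a1, Col6a2, Col6a3, Col4a1, Col4a2, Col8a1, Col12a1, Col14a1, Col15a1 and Col18a1 form one red block (rho = 0.986 for Col1a1 with Col1a2, 0.733 for Col1a1 with Col4a1), and Col9a1, Col9a2, Col11a1 and Col11a2 a second, paler one (rho = 0.530 for Col9a1 with Col9a2). The second is not limited to these chains. Col25a1, a transmembrane chain, had rho = 0.566 with Col11a1, 0.563 with Col9a1, 0.518 with Col9a2 and 0.288 with Col11a2. Col10a1, Col9a3 and Col4a4 also had a positive rho with each of these chains. Their values ran between 0.239 (Col9a3 with Col9a2) and 0.621 (Col10a1 with Col11a2).

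Among the remaining network, FACIT and basement membrane zone chains, Col12a1 and Col14a1, which decorate type I fibrils, had lowest, median and highest levels of 5.55, 8.25 and 11 and of 4.85, 6.62 and 9.65. Col12a1 was highest in mid9 and Col14a1 in mid100. They correlated with each other at r = 0.670 and rho = 0.711 (permutation test, adjusted p = 1.62e-05 for both), with r = 0.628 without the 2 tumours farthest from the Col12a1 median and 0.731 without the 3 arrays. Col8a1, a chain of the short-chain network of vessel walls and of the cornea, was at 5.26, 7.36 and 9.52, with mid60 and mid9 highest, a 12.6-fold difference between the 5th and 95th percentiles. Its partner Col8a2 was narrower, between 4.53 and 5.77, yet followed it at r = 0.770 and rho = 0.731 (permutation test, adjusted p = 1.62e-05 for both), with r = 0.731 without the 2 tumours farthest from the Col8a1 median and 0.782 without the 3 arrays. Col15a1 had lowest, median and highest levels of 5.86, 6.60 and 8.75 and Col18a1, the source of endostatin, of 5.63, 6.02 and 7.94; the highest tumour was mid79 for Col15a1 and mid60 for Col18a1.

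With the level of Col1a1 as the predictor, 17 of 43 collagen genes rose, against 8.10% of all tested genes, and 0 fell, against 5.62%; without the 3 arrays 16 rose, against 6.61%, all of them among the 17, and 0 fell, against 2.41%. Col1a2 had a slope of 1.11 ± 0.03 (SE, limma adjusted p = 4.57e-38), Col3a1 of 1.22 ± 0.07 (4.71e-20) and Col12a1 of 1.07 ± 0.06 (1.06e-18), and without the 3 arrays these slopes were 1.08, 1.12 and 1.10. The gene lost without the 3 arrays was Col28a1, a chain known from peripheral nerve, with a slope of 0.09 ± 0.03 (limma adjusted p = 0.0190) and 0.08 ± 0.03 (0.0664). Col1a1 and Col4a1 correlated at r = 0.667 and rho = 0.733 (permutation test, adjusted p = 1.62e-05 for both), with r = 0.681 without the 2 tumours farthest from the Col1a1 median and 0.694 without the 3 arrays, so the interstitial and the basement membrane collagen moved together less tightly than the chains of collagen I did, a difference that was not itself tested.

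The genes that make, crosslink, bind and degrade collagen were regressed on Col1a1 in the same fit. Of the 19 tested processing and crosslinking genes, 13 lie outside the fibroblast list. The rest, such as Loxl1 and Sparc, are in it, so the count of that list is not independent of the fibroblast score. Of the processing and crosslinking list 15 of 19 rose and 0 fell, against 8.10% and 5.62% of all tested genes, with Lox, the lysyl oxidase that crosslinks fibrils, at 1.28 ± 0.06 (SE, limma adjusted p = 5.99e-24) and Bgn at 0.94 ± 0.04 (5.99e-24). Of the degradation list 11 of 16 rose, with Ctsk, the collagen-cleaving cathepsin K, at 0.76 ± 0.06 (1.76e-13) and Mmp2, a gelatinase, at 1.03 ± 0.09 (1.24e-12). The degradation list also holds Timp3, an inhibitor of metalloproteinases, so it is not made of degrading enzymes alone. Of the synthesis list, the intracellular enzymes and chaperones of collagen, 8 of 19 rose, 0 fell and 11 were not called. P4ha3, a prolyl hydroxylase subunit, was at 0.65 ± 0.06 (limma adjusted p = 7.33e-13). Crtap, part of the prolyl 3-hydroxylation complex, was at 0.24 ± 0.04 (4e-05). The balance of synthesis and degradation was not tested. Of the receptors 5 of 12 rose, with Itga11, the collagen-binding integrin of fibroblasts, at 0.52 ± 0.05 (5.18e-13) and Mrc2, an uptake receptor, at 0.42 ± 0.04 (1.63e-12). Of the basement membrane list 6 of 16 rose, with Nid1, nidogen, at 0.71 ± 0.07 (1.61e-10) and Hspg2, perlecan, at 0.49 ± 0.06 (2.16e-09), and of the TGF-beta pathway 7 of 17, with Tgfbi at 0.63 ± 0.09 (1.3e-07) and Ccn2 at 0.58 ± 0.08 (2.5e-07). None of these 6 lists had a gene that fell, and without the 3 arrays the counts that rose were 14, 11, 7, 4, 7 and 5 in the order given. The 12 genes named here were each called without the 3 arrays too, with slopes between 0.24 and 1.25.

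With Col4a1 as the predictor, 15 of 19 processing genes, 11 of 16 degradation genes, 9 of 19 synthesis genes, 6 of 12 receptors, 8 of 16 basement membrane genes and 8 of 17 TGF-beta genes rose, against 10.7% of all tested genes. These counts without the 3 arrays were 16, 7, 6, 6, 9 and 7, against 6.09%. Lamc1, the laminin chain shared by most basement membranes, had a slope of 0.38 ± 0.03 (SE, limma adjusted p = 4.43e-12), Nid1 of 0.72 ± 0.07 (4.39e-10), and Loxl1, an elastin crosslinker, of 0.73 ± 0.09 (2.49e-08). Sparc, a collagen-binding matrix protein, was at 0.48 ± 0.06 (4.06e-08), Mrc1, the macrophage mannose receptor, at 0.80 ± 0.12 (1.67e-06), and Itga1, the collagen IV-binding integrin, at 0.32 ± 0.05 (5.48e-06). With all 50 tumours 3 listed genes fell, against 9.60% of all tested genes, namely Mmp16, a membrane-bound metalloproteinase, with a slope of -0.37 ± 0.12, Ddr1, a collagen receptor kinase of epithelium, with -0.14 ± 0.05 and Tgfb3, a TGF-beta ligand, with -0.25 ± 0.08 (limma adjusted p = 0.0185, 0.0382 and 0.0134), and without the 3 arrays 0 fell. Mmp2 at 0.92 ± 0.11 (3.37e-08), Timp3, an inhibitor of metalloproteinases, at 0.59 ± 0.08 (4.33e-07), Crtap at 0.27 ± 0.04 (2.4e-06), Serpinh1, the collagen chaperone HSP47, at 0.22 ± 0.04 (0.000121), Tgfbr3 at 0.36 ± 0.06 (3.13e-06) and Ltbp4 at 0.35 ± 0.06 (2.12e-05) completed the genes named from these lists, and the 12 that rose were each called without the 3 arrays too, with slopes between 0.11 and 0.73. Mrc1, in the receptor list, is also a gene of the macrophage list, whose score moved with the collagens as given above. Loxl1 and Sparc are likewise genes of the fibroblast list.

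The epithelial collagens had another pattern. Col17a1, the transmembrane collagen of hemidesmosomes that anchors basal keratinocytes, had lowest, median and highest levels of 4.75, 4.97 and 7.23, and the second highest tumour was at 5.29. The highest tumour was mid60, the array with the skin markers, and the SD was 0.34 over 50 tumours and 0.12 over 47. Col7a1, the anchoring fibril collagen of the dermal-epidermal junction, was at 5.66, 6.02 and 8.15, and here 2 tumours, mid7 and mid114, were both at 8.15, above mid60 at 6.76. The skin score of these 2 was 0.06 and -0.35, against 6.34 in mid60, and their basal epithelium score -0.33 and -0.71. Col7a1 thus did not follow Col17a1 in the tumours where it was highest.

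The basal epithelium score was made from Krt14, Krt17, Trp63 and 5 others, as Krt5 had no probe set of its own. With this score 13 collagen genes rose, against 9.75% of all tested genes, and 3 fell, against 10%. Without the 3 arrays 8 rose, against 3.21%, and 0 fell, against 3.30%. The 3 genes that rose in both were Col15a1, Col16a1 and Col18a1. Col18a1 had the largest statistic, with a slope of 0.30 ± 0.03 (SE, limma adjusted p = 6.41e-11), and 0.11 ± 0.03 (0.0115) without the 3. Col17a1 had 0.27 ± 0.03 (2.39e-10) with all tumours and 0.02 ± 0.02 (0.693) without the 3, where mid60 no longer entered. Col8a2 had 0.10 ± 0.03 (limma adjusted p = 0.0153) and 0.07 ± 0.03 (0.198). The 5 genes called in the 47 tumours alone were Col2a1, Col4a2, Col4a6, Col9a3 and Col25a1, among them Col4a6 with 0.22 ± 0.06 (limma adjusted p = 0.0137), against -0.11 ± 0.08 (0.378) with all 50. Col9a1, with -0.56 ± 0.10 (2.55e-05), Col4a5, with -0.21 ± 0.05 (0.00425), and Col11a1, with -0.44 ± 0.16 (0.0377), fell with all tumours, and Col9a1 and Col11a1 had slopes of 0.06 and 0.35 without the 3 (limma adjusted p = 0.486 and 0.0618), which is the opposite sign.

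Calls on the Erbb2 level were lost without the 3 arrays. Outside mid60 and mid79 Erbb2 ran only between 11.10 and 11.94, which leaves little range to show a relation. With the Erbb2 level 6 collagen genes rose, against 16.6% of all tested genes, and 11 fell, against 14.7%. Col9a1 had a slope of 0.81 ± 0.05 (SE, limma adjusted p = 1.49e-16), Col4a5 of 0.34 ± 0.04 (1.8e-09) and Col11a1 of 0.80 ± 0.12 (1.69e-06), and Col17a1 of -0.23 ± 0.04 (9.07e-07), Col18a1 of -0.25 ± 0.04 (1.65e-06) and Col5a3 of -0.21 ± 0.04 (1.41e-05). Without the 3 arrays 0 of 44 were called by limma, against 0.0554% and 0.105% of all tested genes, with 6 at an unadjusted p under 0.05, and the slope of Col9a1 was 0.12 ± 0.05 (adjusted p = 0.208). Col9a1, Col4a5 and Erbb2 were each at their lowest values in mid60 and mid79.

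Calls on the T and NK cell, proliferation and luminal scores were lost without the 3 arrays as well. With the T and NK cell score 6 collagen genes rose, against 10.9%, and 6 fell, against 13.6%, led by Col9a1 with -0.60 ± 0.09, Col11a1 with -0.75 ± 0.13 and Col4a5 with -0.27 ± 0.05 (limma adjusted p = 5.18e-06, 3.46e-05 and 5.84e-05) and by Col5a3, Col18a1 and Col15a1 with 0.19 ± 0.04, 0.17 ± 0.05 and 0.27 ± 0.07 (0.000443, 0.00426 and 0.0049). With the proliferation score 6 rose, against 10.2%, led by Col9a1 with 0.37 ± 0.11, Col9a3 with 0.24 ± 0.08 and Col4a5 with 0.17 ± 0.06 (limma adjusted p = 0.0177, 0.026 and 0.0281), and Col5a3 alone fell, with -0.15 ± 0.04 (limma adjusted p = 0.0092), against 7.48%. With the luminal score, a regression chosen after values were seen, Col4a5 rose, with 0.20 ± 0.06 (limma adjusted p = 0.00762), against 9.52%, and 5 fell, against 7.76%, led by Col5a3 with -0.17 ± 0.04, Col15a1 with -0.26 ± 0.07 and Col6a2 with -0.26 ± 0.08 (0.00347, 0.0114 and 0.0217). Without the 3 arrays limma called 0 collagen genes on each of these 3 scores, with 2, 1 and 9 at an unadjusted p under 0.05. All tested genes that were called then made up 1.41% (higher) and 0.505% (lower) on the T and NK cell score, 3.72% and 1.57% on the proliferation score, and 0.0555% and 0.0111% on the luminal score. Mid79, the array with the fat markers, was the lowest tumour of the proliferation and luminal scores, at -3.68 and -3.51.

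Whether a gene fell into 2 levels over the tumours was asked with normal mixtures, called where 2 components of equal variance had a BIC more than 10 above that of 1. Of 44 collagen genes 9 were called, against 8.22% of all tested genes, and 4 without the 3 arrays, against 2.64%. The lower group of Col9a1 and of Col4a5 held 2 tumours, the upper groups of Col5a3 and Col6a2 held 3, the lower group of Col11a1 held 6 (means of 7.20 and 10.08), and mid60 alone was the upper level of Col18a1 (7.94, against 6.04). None of these 6 genes was called without the 3 arrays, where Col11a1 had a BIC difference of 6.95. Col7a1, Col2a1 and Col6a5 were called both ways: 2 tumours formed the upper level of Col7a1 (means of 8.13 and 6.11) and of Col2a1 (7.24 and 6.11), and 1 tumour, mid177, that of Col6a5 (5.72, against 4.42). Col5a1 was the other gene called without the 3 arrays, with mid9 alone at its upper level (9.98, against 7.21).

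The least variable members were of several classes. Col4a3, Col4a4, Col6a4, Col13a1, Col19a1, Col22a1, Col23a1, Col24a1 and Col26a1 had SDs between 0.11 and 0.17 and differed by at most 1.42-fold between the 5th and 95th percentiles. Others of the remaining members varied more. Col10a1, the collagen of hypertrophic cartilage, was lowest at 4.50, had a median of 4.94 and was highest at 6.87 in mid16, with mid128 next at 6.22. Col27a1, a fibrillar chain of developing cartilage, ran between 6.78 and 8.66 with a median of 7.48, and Col16a1, a FACIT chain, between 6.01 and 7.63 with a median of 6.78. Col20a1 ran between 5.88 and 7.22, and Col25a1, a transmembrane chain first found in amyloid plaques in human brain, between 5.60 and 7.07. Col11a2 ran between 5.44 and 6.63, Col28a1 between 4.32 and 5.43 and Col6a6 between 5.46 and 6.34. Of the 44 genes, 8 had a mean under 5.27, the median of all probe sets, where RMA compresses differences, and a narrow range there may understate the spread.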

How the data were processed

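RNA of 50 tumours was measured on Affymetrix arrays, 1 per tumour, from biotinylated cRNA made from 6 ug total RNA, per the labels' protocols. The deposited values are log2 expression that the authors made with RMA (background correction, quantile normalization and median polish), per the submitters' processing notes, given to 2 decimals for 34472 probe sets; its version is not stated there, and the notes list build mm8 with no role. Because quantile normalization equalises the arrays' distributions, a shift common to most genes cannot show, and low values are compressed.

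Probe sets with 1 gene in the platform annotation (23521) were used, the one with the highest mean per gene, above the 25th percentile of all probe set means; 1 probe set that lists Col6a1 with other genes was not used. Standardised scores of marker lists and single gene levels were predictors in limma 3.58.1 (lmFit, eBayes with trend, two-sided), adjusted by Benjamini-Hochberg over all tested genes outside the predictor and called under 0.05. Pairs were tested with 100000 two-sided permutations. Mixtures were fitted with mclust 6.1.1. Other software was R 4.3.3, numpy 2.4.6 and pandas 2.3.3 under Python 3.11.15, and scipy 1.17.1, with matplotlib 3.10.9 for figures, and the fits were tested on simulated data.

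The members, lists and tests, and the 3 arrays left out, were chosen with earlier results of these data known. Named were all collagen genes, the 3 called members with the largest statistic in each direction of each regression, the 2 called genes with the largest statistic in each pathway list, and the 3 genes most correlated with each of the 4 most variable collagens; genes that fell with Col4a1 and the cartilage markers were named after their values were seen. Alternatives were other filters and probe sets, ranks, Spearman's rho, leaving out the 2 tumours most distant from the predictor's median, and arrays left out. Nothing in the labels says more on how the tumours were sampled, so p-values judge relations against the scatter over these tumours only.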

Additional observations from a re-analysis of the deposited data

How the results depend on the processing

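The numbers of collagen genes called in either direction on the fibroblast, pericyte, endothelium and macrophage scores, on Col1a1 and on Col4a1 stayed within 1.5 times under the alternatives run, but those that fell numbered 4, 3, 8 and 4 on the 4 scores and 0 on each without mid60, mid79 and mid100. Collagen genes called in either direction on the basal epithelium score numbered 16, and 8 without mid60, mid79 and mid100 and 7 with ranks over tumours. On the cartilage score they numbered 22, and 7 without the 3 arrays. On the T and NK cell score they numbered 12, and 0 without the 3 arrays, 5 without the 2 farthest tumours (mid79 and mid147), 1 with ranks and 4 without mid79 alone. On the proliferation score they numbered 7, and 0 without the 3 arrays, without the 2 farthest tumours, with ranks or without mid79 alone. On the luminal score they numbered 6, and 0 without the 3 arrays, 3 without the 2 farthest tumours, 0 with ranks, 14 without mid60 alone and 2 without mid79 alone. On Erbb2 they numbered 17, and 0 without the 3 arrays or without the 2 farthest tumours, 1 with ranks and 10 without mid79 alone. In the joint model the fibroblast term called 14, and 9 with ranks, the endothelium term 16, and 0 without the 3 arrays or with ranks, and the basal epithelium term 5, and 1 with ranks. Genes with 2 levels numbered 9, and 4 without the 3 arrays. Without mid71 as well as the 3 arrays the counts were 6 on the basal epithelium score, 7 on the cartilage score, 0 on the T and NK cell, proliferation and luminal scores, on Erbb2 and for the endothelium term, 3 for the basal epithelium term and 4 genes with 2 levels, and 18 pairs were called. Runs without mid71 or without 1 array, and all runs on the luminal score, were chosen after seeing the data. Where a count moved, the cause was not tested beyond the arrays named.

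Slopes of single genes that changed sign are given per SD of the predictor. On the basal epithelium score Col11a1 was at 0.15 with ranks, 0.0814 without mid60 and 0.35 without the 3 arrays, Col24a1 at -0.006 with ranks, -0.013 without mid60 and -0.015 without the 2 farthest tumours, and Col9a1 at 0.14 with ranks and 0.0648 without the 3 arrays. On the cartilage score Col17a1 was at 0.0135 without the 3 arrays and 0.0151 without the 2 farthest. Without the 3 arrays Col4a5 was at 0.0001 on the endothelium score and Col9a2 at -0.0053 on Erbb2. On Erbb2, Col17a1 was at 0.0085 and Col18a1 at 0.0223 without the 3 arrays, and at 0.0097 and 0.0078 without the 2 farthest. Col4a5 was at 0.0632 (ranks), 0.028 (3 arrays) and 0.0156 (2 farthest) on the pericyte score, at -0.0102 (3 arrays), -0.005 (mid79) and -0.0308 (2 farthest) on the proliferation score, and at -0.0503 without mid79 on the luminal score. Without mid71 and the 3 arrays, Col11a1 was at 0.348 and Col9a1 at 0.0644 on the basal epithelium score, Col17a1 at 0.0141 on the cartilage score and 0.0086 on Erbb2, Col18a1 at 0.0226 and Col9a2 at -0.0054 on Erbb2, and Col4a5 at 0.0002, 0.0255 and -0.0103 on the endothelium, pericyte and proliferation scores.

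Of 26 pairs, 21 were called with r, and 19 with rho, without the 3 arrays or without the 2 farthest tumours. Col5a1 and Col11a1, the negative pair (r = -0.328, rho = -0.162, permutation test, adjusted p = 0.0277 and 0.278), had r = -0.056 (0.759) without the 3 arrays and -0.290 (0.0569) without the 2 farthest. No paired analysis was possible because all tumours form 1 group.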

Other observations

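Col25a1, a transmembrane collagen, and Col27a1, a fibrillar chain, rose with the cartilage score over all 50 tumours, with slopes of 0.14 ± 0.04 and 0.15 ± 0.05 (SE, limma adjusted p = 0.0043 and 0.0283). Without mid60, mid79 and mid100 they had slopes of 0.12 ± 0.04 and 0.15 ± 0.06, with adjusted p of 0.0525 and 0.0789. Col26a1 was called there in the 47 tumours, with 0.07 ± 0.02 (0.0085), and not over all 50, with 0.04 ± 0.02 (0.062).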
